A study of Danio rerio with 12 samples.

Results

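The 10 genes described here serve amino acid uptake and the stress response that the transcription factor ATF4 governs, and they are 10 of the 32057 genes in the deposited table. They were taken by symbol and comprise slc3a2a (ENSDARG00000036427), slc3a2b (ENSDARG00000037012), slc7a5 (ENSDARG00000099265), slc7a11 (ENSDARG00000071384), asns (ENSDARG00000016375), atf4a (ENSDARG00000111939), atf4b (ENSDARG00000038141), ddit3 (ENSDARG00000059836), chac1 (ENSDARG00000070426) and trib3 (ENSDARG00000016200). For slc3a2b the names table holds 1 ID, under the symbol SLC3A2 without a paralog letter, and that ID was taken. The set was chosen by measured values in part, since slc3a2a was selected on its lower level in heterozygotes at 8 months post-fertilization (mpf), so its values in every contrast that uses those libraries, or the wild-type libraries set against them, are given as a description with no test. RNA was sequenced in bulk from ovarian follicles of the primary growth stage of AB strain zebrafish. The 4 groups of 3 libraries are cdkn1a +/- heterozygotes (HE) and cdkn1a +/+ wild type (WT) at 8 mpf, and the same genotypes at 50 days post-fertilization (dpf). cdkn1a, the gene of the cell cycle inhibitor p21, was disrupted with CRISPR/Cas9, and per the series description fish lacking both copies die as embryos. The labels state neither the allele nor how many fish a library holds, so the p-values measure the spread between libraries, which may be technical.

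The SLC3A2 heavy chain (CD98) carries a light chain such as SLC7A5, which takes up large neutral amino acids, or SLC7A11, which takes up cystine in exchange for glutamate, to the cell surface. When amino acids run short or misfolded protein builds up, kinases phosphorylate the initiation factor eIF2, most translation slows, and ATF4 is translated from its messenger RNA more often. ATF4 then raises genes of amino acid transport and synthesis, among them SLC3A2, SLC7A5, SLC7A11 and ASNS, and with the factor DDIT3 (CHOP) it raises CHAC1 and TRIB3. These roles are known from mammals. Because ATF4 is set largely at translation, its messenger RNA level does not give its protein level.

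Library totals ran from 31044931 to 96839220 estimated counts. The targeted gene cdkn1a was at 0.544 ± 0.132 CPM in HE and 0.858 ± 0.240 CPM in WT at 8 mpf, and at 0.464 ± 0.0499 CPM in HE and 3.58 ± 0.259 CPM in WT at 50 dpf (mean ± SD, n = 3 libraries each; CPM is the count relative to the TMM-scaled library size). The summed CPM of markers of several cell types, the oocyte included, differed between the genotypes. The 13 oocyte markers summed to 13362 to 14850 CPM in HE and 9300 to 10462 CPM in WT at 8 mpf, and to 22733 to 28761 CPM in HE and 14191 to 16898 CPM in WT at 50 dpf, higher in HE without overlap at both ages. Of these 13, 2 were called higher and 3 lower in HE at 8 mpf, and 7 higher and 2 lower at 50 dpf. The share called was 38.5% at 8 mpf and 69.2% at 50 dpf, where 28.1% and 40.8% of all tested genes were called. The 14 leukocyte markers summed to 40.9 to 59.3 CPM in HE and 77.4 to 102 CPM in WT at 8 mpf, and to 45.3 to 51.7 CPM in HE and 103 to 109 CPM in WT at 50 dpf. At 0 in all 3 libraries of a group were il2rga and marco among the leukocyte, LUM among the stromal and NR5A1 (1 ID) among the follicle somatic markers in HE at 50 dpf, gata1a in HE at both ages and hbaa2 in HE at 50 dpf, and of the liver markers hp in every group and TTR in every group but WT at 50 dpf. The 14 stromal markers summed to 47.0 to 64.7 CPM in HE and 124 to 169 CPM in WT at 8 mpf, and to 89.2 to 93.1 CPM in HE and 126 to 130 CPM in WT at 50 dpf. The 15 liver markers summed to 15.3 to 19.7 CPM in HE and 8.15 to 9.43 CPM in WT at 8 mpf, and to 30.4 to 39.4 CPM in HE and 266 to 276 CPM in WT at 50 dpf. The sums of the 16 follicle somatic markers (188 to 213 CPM in HE and 192 to 216 CPM in WT at 8 mpf, 350 to 436 CPM in HE and 386 to 402 CPM in WT at 50 dpf) overlapped between the genotypes at both ages. Of the 15 tested, 1 was called higher and 3 lower in HE at 8 mpf, and 1 higher and 5 lower at 50 dpf. The share called, 26.7% and 40%, was near that of all genes. Their median log2 fold change was -0.41 at 8 mpf and -0.90 at 50 dpf, where all tested genes had 0.0083 and -0.071. The 9 erythrocyte markers summed to 20.4 to 37.2 CPM in HE and 30.95 to 41.2 CPM in WT at 8 mpf, and to 32.5 to 44.7 CPM in HE and 47.9 to 60.3 CPM in WT at 50 dpf. In bulk samples fewer cells of a type and less RNA per cell cannot be told apart, and the part of these cells in the results below was not tested.

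All 10 genes passed the filter on low counts, but slc7a5, slc7a11 and ddit3 did so mainly through wild-type libraries. The filter minimum was 0.208 CPM of the unscaled library total. slc7a5 reached it in 6 of 6 WT and 2 of 6 HE libraries, slc7a11 in 4 of 6 WT and 0 of 6 HE libraries, and ddit3 in 5 of 6 WT and 1 of 6 HE libraries. The other 7 genes reached it in all 12. A count over the 10 genes therefore leans toward lower values in HE, and for calls, medians and overlap the value over those 7 (6 where slc3a2a has no test) is given beside it.

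Whether the loss of 1 cdkn1a copy changed these genes was asked at each age. At 8 mpf the CD98 genes slc3a2b and slc7a5 were lower in HE, and so were ddit3 and trib3. slc7a11, also a CD98 light chain, did not pass the threshold, and neither did atf4a, atf4b, asns and chac1. At 50 dpf the 2 heavy chains and slc7a5 were again lower, and the ATF4 genes moved apart, with atf4a and chac1 higher and atf4b and trib3 lower in HE. The threshold was an adjusted p under 0.05 in edgeR's quasi-likelihood test, with Benjamini-Hochberg adjustment over the 18834 tested genes of the table. At 8 mpf 4 of the 9 genes with a test passed (28.1% of all tested genes did), all lower in HE (15.5% of all tested genes were called lower). Without the 3 genes that the filter favours, 2 of 6 passed. At 50 dpf 7 of 10 passed (40.8% of all tested genes did), 2 higher and 5 lower (19.6% and 21.2% of all tested genes), and 6 of the 7 well-counted genes passed. Over all tested genes 2377 were called higher and 2911 lower in HE at 8 mpf (1337 and 4037 with library size alone, 1754 and 3410 with upper quartile scaling), and 3696 higher and 3995 lower at 50 dpf (1618 and 6749 with library size alone). The median log2 fold change was -0.33 over the 9 genes at 8 mpf, where all tested genes had 0.0083, and -1.22 over the 10 genes at 50 dpf, where all tested genes had -0.071. Over the well-counted genes alone it was -0.18 (6 genes) at 8 mpf and -0.60 (7 genes) at 50 dpf. HE and WT libraries did not overlap in CPM for 5 of 9 genes at 8 mpf (47% of all tested genes) and for 8 of 10 at 50 dpf (57.4% of all tested genes). Of the well-counted genes 3 of 6 did not overlap at 8 mpf, a share near that of all genes, and 6 of 7 at 50 dpf.

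**Figure D1:**
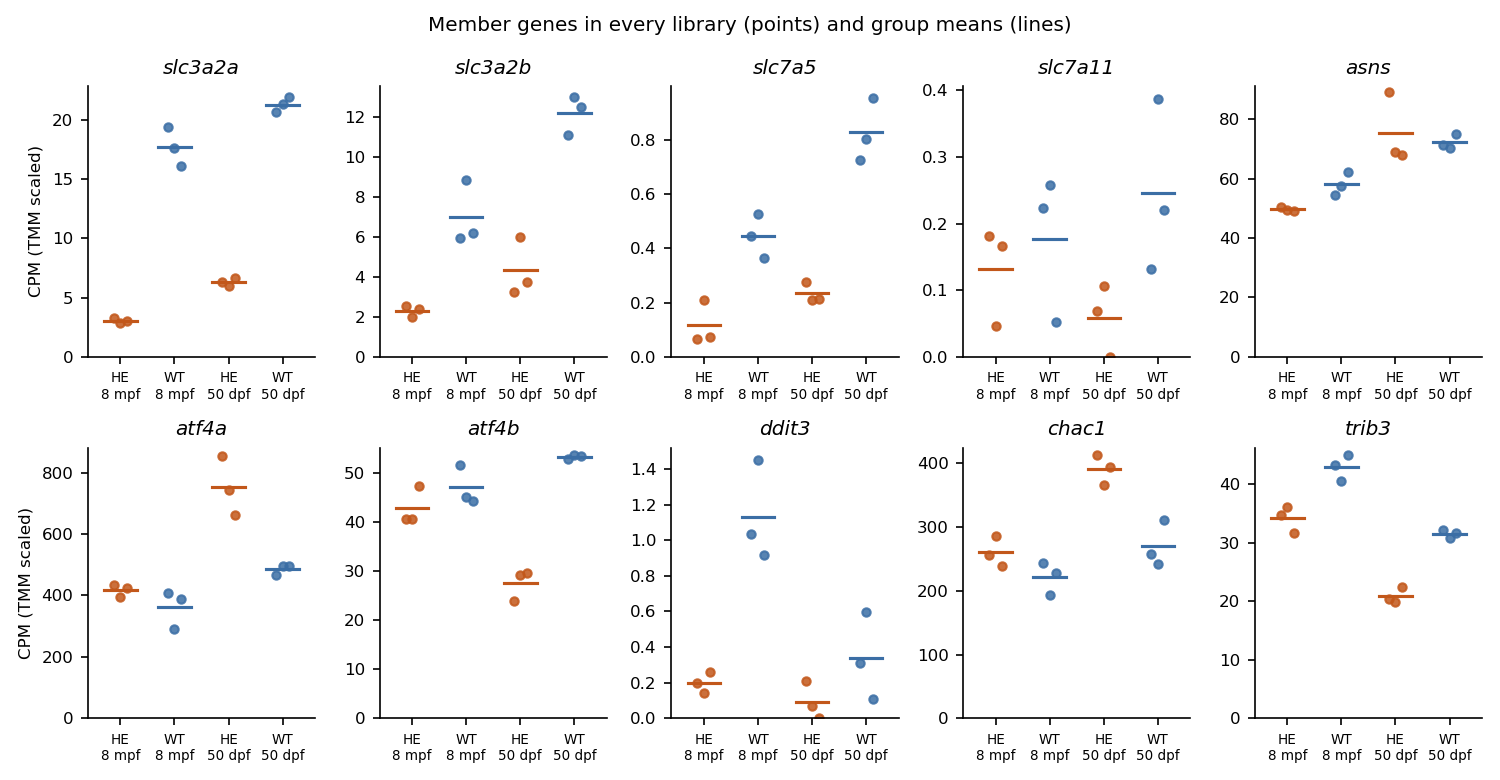
CPM (TMM scaled, linear axis from 0) of each of the 10 genes in each of the 12 libraries, as points, with the group mean as a line, for HE and WT at 8 mpf and at 50 dpf. slc3a2a, slc3a2b and slc7a5 lie lower in every HE library than in every WT library of the same age, while atf4a and chac1 are highest in HE at 50 dpf.

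The heavy chain gene slc3a2a was low in heterozygotes at both ages. At 8 mpf, the contrast it was picked for, it was at 3.29, 2.89 and 3.01 CPM in the HE libraries and at 19.4, 17.7 and 16.1 CPM in the WT libraries, so that log2(HE/WT) was -2.53 (SE 0.12), with HE at 17.3% of the WT mean. The libraries at 50 dpf played no part in that choice. There slc3a2a was at 6.34, 5.95 and 6.63 CPM in HE and at 20.6, 21.3 and 21.9 CPM in WT. The groups did not overlap, and the highest HE library lay far under the lowest WT library. The log2 fold change was -1.75 (SE 0.11; edgeR adjusted p = 3.31e-07), with HE at 29.6% of WT. The 8 mpf libraries enter the shared estimate of the spread behind this p-value. The fold change lay between -2.09 and -1.71 over 23 alternatives and was called in each of them, a fit of the 50 dpf groups alone included. The 4 group means ran in the order WT at 50 dpf, WT at 8 mpf, HE at 50 dpf and HE at 8 mpf, with no overlap between neighbours.

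Its duplicate slc3a2b, the other CD98 heavy chain, had the same order of group means. It was at 2.55, 2.0 and 2.40 CPM in HE and at 5.93, 8.83 and 6.17 CPM in WT at 8 mpf. At 50 dpf it was at 3.22, 5.99 and 3.76 CPM in HE and at 11.1, 13.0 and 12.5 CPM in WT. HE libraries lay below all WT libraries at each age, though HE replicate 2 at 50 dpf reached the level of the lower WT libraries at 8 mpf. Between the genotypes the log2 fold change was -1.59 (SE 0.23; edgeR adjusted p = 0.000222) at 8 mpf and -1.497 (SE 0.23; adjusted p = 0.000273) at 50 dpf. The 2 effects differed by -0.092 (SE 0.31; adjusted p = 0.881), a difference that did not pass. Reads that fit both heavy chain genes may have been split between them, since the sources used here do not say how shared reads were counted. In the same libraries leukocyte and stromal marker sums were lower in HE and oocyte sums were higher. Follicle somatic sums overlapped, though more of those markers were called lower than higher. Any link to slc3a2b was not tested.

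slc7a5, the light chain for large neutral amino acids, was counted at low depth. Its estimated counts at 8 mpf were 4, 9 and 7 in HE and 22, 43 and 21 in WT, or 0.0661, 0.209 and 0.0729 CPM against 0.445, 0.528 and 0.363 CPM. At 50 dpf they were 8, 6 and 7 in HE and 44, 27 and 52 in WT, or 0.277, 0.211 and 0.214 CPM against 0.724, 0.804 and 0.954 CPM. Each HE library lay below each WT library of its age. The log2 fold change was -2.02 (SE 0.48; edgeR adjusted p = 0.00746) at 8 mpf and -1.81 (SE 0.47; adjusted p = 0.0088) at 50 dpf, called in all 23 alternatives at both ages. slc7a5 passed the filter mainly through WT libraries, so its test leans toward lower values in HE. The alternatives, a fit with no filter included, reuse the same libraries and are no independent support.

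slc7a11, the cystine light chain, was near the limit of detection. It had 11, 2 and 16 counts in HE and 11, 21 and 3 counts in WT at 8 mpf, groups that overlapped widely. In the libraries of 50 dpf it had 2, 3 and 0 counts in HE and 8, 13 and 12 counts in WT. A count of 0 allows up to 3 counts, which is 0.0916 CPM in that library. The edgeR adjusted p was 0.764 at 8 mpf and 0.119 at 50 dpf, where no library of one genotype overlapped the other, and a difference was not detectable at this depth.

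asns, the enzyme that makes asparagine and a textbook target of ATF4, changed little with genotype. It was at 50.5, 49.3 and 49.1 CPM in HE and at 54.6, 57.4 and 62.1 CPM in WT at 8 mpf. At 50 dpf it was at 89.2, 69.0 and 68.1 CPM in HE and at 71.4, 70.2 and 75.1 CPM in WT. HE lay just below WT at 8 mpf without overlap, and the groups overlapped at 50 dpf, where HE replicate 1 stood above the rest. Between the genotypes the log2 fold change was -0.23 (SE 0.11; edgeR adjusted p = 0.135) at 8 mpf and 0.062 (SE 0.11; adjusted p = 0.669) at 50 dpf, neither past the threshold. Without HE replicate 1 of 50 dpf, which enters the shared estimate of the spread, the value at 8 mpf was -0.25 with an adjusted p of 0.018. A fit of the 8 mpf groups alone also called asns lower, at -0.26 (adjusted p = 0.0481). With library size alone as the scaling, asns was called lower at both ages, at -0.41 (adjusted p = 0.0038) and -0.28 (adjusted p = 0.0191). That scaling moved the median of all genes by -0.18 at 8 mpf and -0.33 at 50 dpf.

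The ATF4 duplicates differed from each other. atf4a was at 434, 395 and 426 CPM in HE and at 409, 292 and 388 CPM in WT at 8 mpf. In the libraries of 50 dpf it was at 854, 745 and 662 CPM in HE and at 467, 495 and 495 CPM in WT. The genotypes overlapped at 8 mpf and stood apart at 50 dpf, with HE higher. The log2 fold change was 0.21 (SE 0.13; edgeR adjusted p = 0.268) at 8 mpf and 0.63 (SE 0.13; adjusted p = 0.00225) at 50 dpf. The difference between the ages was -0.43 (SE 0.18; adjusted p = 0.147), which did not pass. Without WT replicate 2 of 8 mpf, which was the lowest library for atf4a, that difference was -0.56 and passed (adjusted p = 0.0205).

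atf4b was at 40.6, 40.6 and 47.4 CPM in HE and at 51.8, 45.1 and 44.3 CPM in WT at 8 mpf. At 50 dpf it was at 24.0, 29.3 and 29.6 CPM in HE and at 53.0, 53.7 and 53.4 CPM in WT. The genotypes overlapped at 8 mpf, and at 50 dpf HE held 51.7% of the WT mean. Between the genotypes the log2 fold change was -0.13 (SE 0.11; edgeR adjusted p = 0.385) at 8 mpf and -0.95 (SE 0.11; adjusted p = 3.46e-05) at 50 dpf. This effect differed between the ages by 0.82 (SE 0.15; adjusted p = 0.00415), and atf4b was the only 1 of the 9 genes with a test whose difference passed (13.5% of all tested genes did, 6.88% as higher and 6.65% as lower). The difference was called in all 22 alternatives that give it.

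ddit3, which encodes the stress factor CHOP, was low everywhere. Like slc7a5, it passed the filter mainly through WT libraries, so its test leans toward lower values in HE. It had 12, 6 and 25 counts in HE and 51, 118 and 53 counts in WT at 8 mpf, or 0.198, 0.140 and 0.260 CPM against 1.03, 1.45 and 0.917 CPM. In the libraries of 50 dpf it had 6, 2 and 0 counts in HE and 19, 20 and 6 counts in WT. HE was below WT without overlap at 8 mpf, and the groups overlapped at 50 dpf. The log2 fold change at 8 mpf was -2.46 (SE 0.65; edgeR adjusted p = 0.0136). With limma, and 0.1 added to the deposited normalized values before taking logs, it was -2.51 and did not pass (limma adjusted p = 0.212; range over the alternatives 0.0015 to 0.212). At 50 dpf the adjusted p was 0.0941. It passed without WT replicate 3 (0.045) or HE replicate 1 of that age (0.0304) and with library size alone (0.0483).

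chac1 and trib3, both stress targets, moved in opposite directions at 50 dpf. chac1, whose enzyme degrades glutathione, was at 256, 286 and 239 CPM in HE and at 243, 194 and 228 CPM in WT at 8 mpf. At 50 dpf it was at 413, 365 and 395 CPM in HE and at 258, 242 and 310 CPM in WT. All HE libraries were above all WT libraries at 50 dpf, and the genotypes overlapped at 8 mpf. Between the genotypes the log2 fold change was 0.23 (SE 0.12; edgeR adjusted p = 0.171) at 8 mpf and 0.53 (SE 0.12; adjusted p = 0.00392) at 50 dpf. Scaled by library size alone, the value at 50 dpf was 0.20 and did not pass (adjusted p = 0.155).

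trib3, a pseudokinase that binds ATF4 and CHOP, was at 34.7, 36.1 and 31.7 CPM in HE and at 43.3, 40.5 and 45.0 CPM in WT at 8 mpf. In the libraries of 50 dpf it was at 20.4, 19.9 and 22.4 CPM in HE and at 32.2, 30.9 and 31.7 CPM in WT. HE was lower without overlap at both ages. The log2 fold change was -0.33 (SE 0.09; edgeR adjusted p = 0.016) at 8 mpf and -0.60 (SE 0.09; adjusted p = 0.000311) at 50 dpf. The call at 8 mpf was lost without WT replicate 3 (-0.31, adjusted p = 0.060) or HE replicate 3 (-0.29, adjusted p = 0.0663) of that age.

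**Figure D2:**
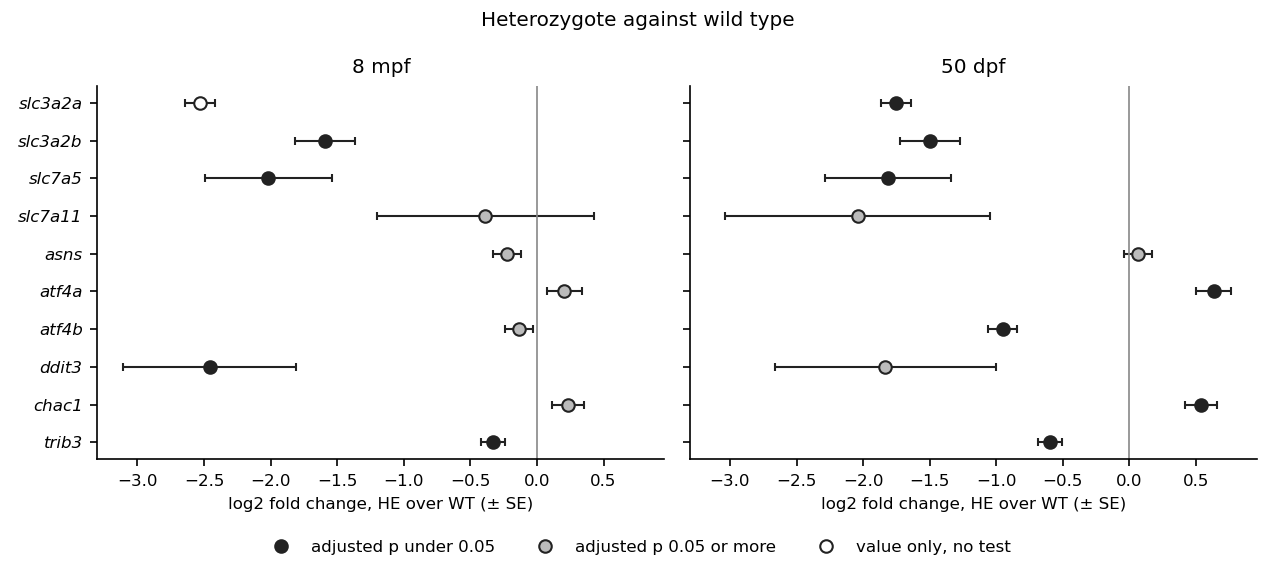
Log2 fold change of HE over WT at 8 mpf and at 50 dpf for the 10 genes, with bars of 1 SE; filled black points passed the adjusted p threshold of 0.05, grey points did not, and the open point (slc3a2a at 8 mpf) carries no test. slc3a2b, slc7a5 and trib3 were called lower at both ages, and atf4a and chac1 were called higher at 50 dpf.

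Because the sign of a small change can depend on the scaling, pairs of these genes were also compared as the ratio of their counts within a library, which no scaling changes. The ratio of atf4a to atf4b counts was 10.7, 9.72 and 8.98 in HE and 7.90, 6.46 and 8.74 in WT at 8 mpf. At 50 dpf it was 35.6, 25.4 and 22.4 in HE and 8.81, 9.22 and 9.26 in WT. Every HE library had a higher ratio than every WT library of its age, and the ratio in HE at 50 dpf stood far above all other groups. The mean log2 difference was 0.35 at 8 mpf and 1.58 at 50 dpf, each with an exact permutation p = 0.1, the smallest that 3 against 3 libraries allow. The ratio of chac1 to trib3 counts was 7.39, 7.93 and 7.52 in HE and 5.61, 4.78 and 5.06 in WT at 8 mpf. In the libraries of 50 dpf it was 20.2, 18.4 and 17.6 in HE and 8.00, 7.84 and 9.78 in WT. HE was again higher without overlap at both ages, by 0.57 and 1.14 on the log2 scale (exact permutation p = 0.1 each). By the CPM above, atf4a and chac1 were higher and atf4b and trib3 lower in HE at 50 dpf, each without overlap. That fixed the outcome of both ratio tests at that age, so there they are no further support. The ratio of slc3a2a to slc3a2b counts overlapped between genotypes at 50 dpf, at 1.97, 0.994 and 1.76 in HE and 1.86, 1.64 and 1.75 in WT (exact permutation p = 0.9). It was 1.29, 1.44 and 1.26 in HE and 3.27, 2.0 and 2.61 in WT at 8 mpf, which is not tested because slc3a2a was picked there. Over these 5 tests, all two-sided, the adjusted p-values were 0.125, and 0.9 for the heavy chains. These are ratios of counts and not of molecules, since transcript lengths differ between genes.

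**Figure D3:**
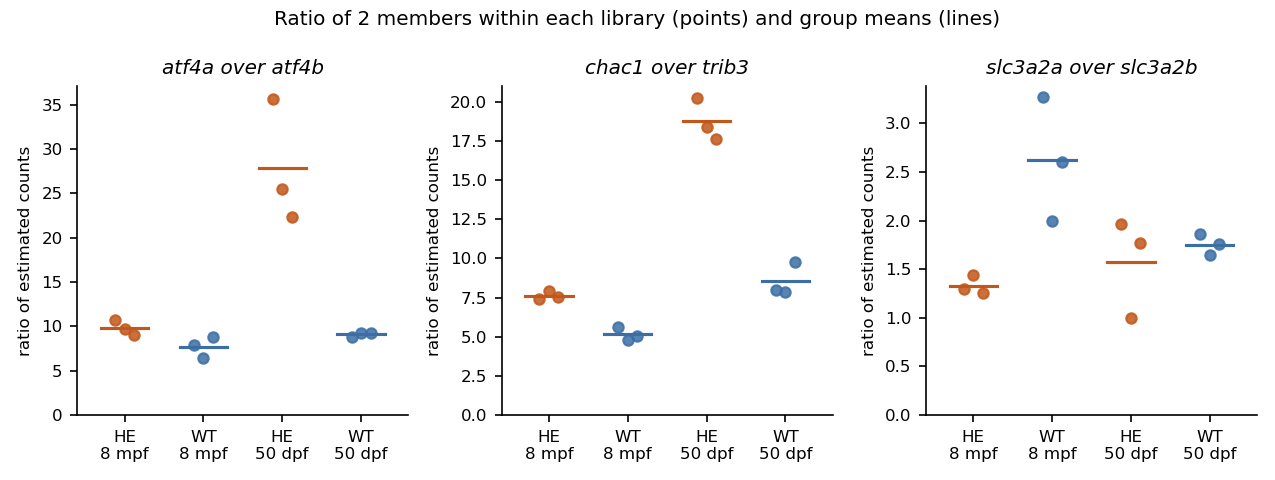
Ratio of the estimated counts of 2 genes within each library, as points with the group mean as a line, for atf4a over atf4b, chac1 over trib3 and slc3a2a over slc3a2b in HE and WT at 8 mpf and 50 dpf. The first 2 ratios are highest in HE at 50 dpf, with 35.6, 25.4 and 22.4 for atf4a over atf4b.

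With age, atf4a and asns were lower at 8 mpf than at 50 dpf in both genotypes, slc3a2b was lower in both, and trib3 was higher in both. In HE, 6 of the 9 genes with a test passed (53.9% of all tested genes did), 2 higher and 4 lower at 8 mpf (28.5% and 25.5% of all tested genes). In WT, 5 of 9 passed (55.2% of all tested genes did), 2 higher and 3 lower (28.7% and 26.5% of all tested genes). Of the 6 well-counted genes with a test, 2 were higher and 4 lower in HE, and 1 was higher and 3 lower in WT. The 5 of 9 in WT is a share near that of all genes. The labels give no batch, and age and any batch cannot be told apart. The CPM of the 2 ages did not overlap for 7 of 9 genes in HE (62.7% of all tested genes) and for 7 of 9 in WT (66.3% of all tested genes). Among the well-counted genes these were 6 of 6 in HE and 5 of 6 in WT. With upper quartile scaling, which moved the median of all genes by -0.16 in each genotype, the split over all genes in WT was 4435 higher and 6217 lower, against 5397 and 5000 with TMM, and with library size alone it was 6664 and 3442 in HE, against 5364 and 4794 with TMM. In HE upper quartile gave 4394 higher and 6031 lower.

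trib3 averaged 34.2 ± 2.22 CPM at 8 mpf and 20.9 ± 1.33 CPM at 50 dpf in HE (n = 3 each), and its log2 change was 0.71 (SE 0.09; adjusted p = 3.75e-05). In WT it averaged 42.9 ± 2.27 CPM at 8 mpf and 31.6 ± 0.675 CPM at 50 dpf, a change of 0.44 (adjusted p = 0.00122). atf4a averaged 418 ± 20.3 CPM at 8 mpf and 753 ± 96.3 CPM at 50 dpf in HE, a change of -0.85 (SE 0.13; adjusted p = 0.000148). In WT it averaged 363 ± 62.5 CPM and 486 ± 16.3 CPM, a change of -0.42 (adjusted p = 0.0155) that was lost without WT replicate 2 of 8 mpf (-0.28, adjusted p = 0.0533) or of 50 dpf (-0.40, adjusted p = 0.0541). atf4b went the other way in HE, where it averaged 42.9 ± 3.91 CPM at 8 mpf and 27.6 ± 3.16 CPM at 50 dpf, a change of 0.63 (SE 0.11; adjusted p = 0.000335). In WT atf4b averaged 47.1 ± 4.07 CPM and 53.4 ± 0.392 CPM, a change of -0.18 that did not pass (adjusted p = 0.171) except with upper quartile scaling (-0.34, adjusted p = 0.0143).

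asns averaged 49.6 ± 0.747 CPM at 8 mpf and 75.4 ± 11.9 CPM at 50 dpf in HE, with a log2 change of -0.60 (SE 0.11; adjusted p = 0.000416). In WT it averaged 58.0 ± 3.79 CPM and 72.3 ± 2.53 CPM, a change of -0.32 (adjusted p = 0.0231), and the call was lost without any of WT replicates 1, 2 and 3 of 50 dpf or 1 and 2 of 8 mpf (adjusted p 0.0522 to 0.0949). slc3a2b changed by -0.89 in HE (SE 0.23; adjusted p = 0.00563) and -0.80 in WT (SE 0.22; adjusted p = 0.00735). The HE call was lost with library size alone (-0.69, adjusted p = 0.0557). chac1 changed by -0.59 in HE (SE 0.12; adjusted p = 0.00123), and by -0.29 in WT, which did not pass (adjusted p = 0.0603) but did with RLE scaling, upper quartile scaling, DESeq2, a filter on a mean of 10 counts, and without WT replicate 1 of 8 mpf or replicate 2 of 50 dpf (adjusted p 0.00822 to 0.0498). ddit3 was higher at 8 mpf in WT, at 1.13 ± 0.279 CPM against 0.339 ± 0.244 CPM, a change of 1.79 (SE 0.64; adjusted p = 0.031). That call was lost in 6 of 23 alternatives, among them the leaving out of WT replicates 1 or 3 of 50 dpf or 1 or 2 of 8 mpf (adjusted p 0.0525 to 0.105). In HE the ddit3 change of 1.16 did not pass (adjusted p = 0.261). slc7a5 did not pass in HE (-1.09, adjusted p = 0.0958) or in WT (-0.89, adjusted p = 0.0942), though it passed in HE without HE replicate 2 of 8 mpf (-1.70, adjusted p = 0.0143) and with limma and a pseudocount of 1 (-1.07, adjusted p = 0.0485), and in WT without that library (-0.88, adjusted p = 0.0499) and in a fit of the compared groups alone (-0.85, adjusted p = 0.0415). slc7a11 passed in neither (adjusted p = 0.322 in HE and 0.682 in WT). slc3a2a, given without a test, changed by -1.04 in HE and -0.27 in WT.

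**Figure D4:**
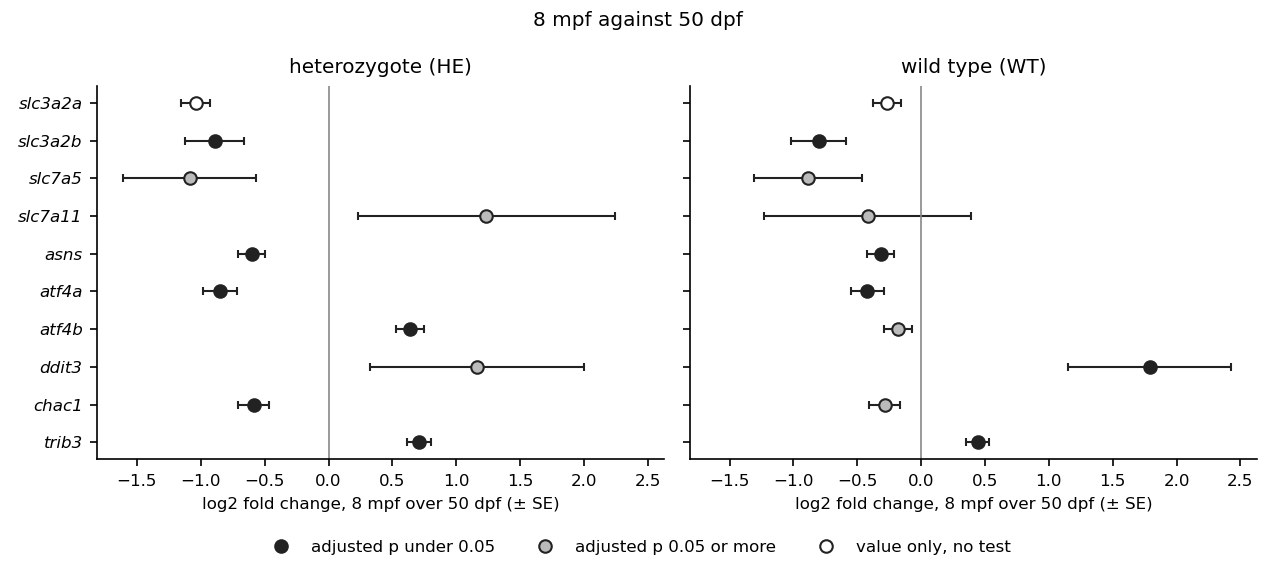
Log2 fold change of 8 mpf over 50 dpf in HE and in WT for the 10 genes, with bars of 1 SE; black points passed the adjusted p threshold of 0.05, grey points did not, and open points (slc3a2a) carry no test. atf4b is at 0.63 in HE and -0.18 in WT, and trib3 is above 0 in both.

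Genes around these 10 in the same pathways were read from 8 lists, each with symbols as the names table gives them. For each list the text gives how many tested genes were called in HE against WT, then values as log2 fold changes with edgeR adjusted p-values. The counts are to be read against the 28.1% of all tested genes that were called at 8 mpf and the 40.8% at 50 dpf. Of the other amino acid transporters, 2 of 23 were higher and 9 lower in HE at 8 mpf, and 4 were higher and 8 lower at 50 dpf, with medians of -0.47 and -0.37. The share called was 47.8% at 8 mpf and 52.2% at 50 dpf. At 8 mpf the genes named SLC43A2, uniporters of large neutral amino acids (ENSDARG00000061120 and ENSDARG00000036848), were at -2.25 (adjusted p = 9.55e-07) and -2.29 (adjusted p = 0.000129). The first averaged 3.98 ± 0.309 CPM in HE and 19.0 ± 4.19 CPM in WT. SLC7A7, another light chain of CD98, was at -2.35 (adjusted p = 8.43e-05; 1.17 ± 0.0289 CPM in HE and 5.98 ± 1.54 CPM in WT). slc7a1a, of the cationic amino acid transporters, was at 3.17 (adjusted p = 0.00289) at low counts, and SLC43A1 (ENSDARG00000037393) was at 0.32 (adjusted p = 0.0126). At 50 dpf the cationic transporter SLC7A3 (ENSDARG00000061566) was at -2.87 (adjusted p = 1.27e-05). The 2 genes named SLC7A10, again a light chain of CD98, went opposite ways at that age. ENSDARG00000008100 was at -2.01 (adjusted p = 0.000139) and ENSDARG00000051730 at 1.11 (adjusted p = 0.0212). The glutamine transporter SLC1A5 was at -0.56 (adjusted p = 0.000397; 42.6 ± 4.45 CPM in HE and 62.8 ± 1.04 CPM in WT). SLC1A4, a carrier of small neutral amino acids, was at 1.003 (adjusted p = 0.000563), slc7a1a at 1.70 (adjusted p = 0.0141) and SLC43A2 (ENSDARG00000061120) at 0.60 (adjusted p = 0.00948). Calls were lost for SLC43A1 at 8 mpf (adjusted p = 0.361) and SLC43A2 at 50 dpf (adjusted p = 0.237) with library size alone, for SLC43A1 without HE replicate 3 of 8 mpf (adjusted p = 0.0617), and for slc7a1a at 50 dpf without WT replicate 2 of that age (adjusted p = 0.0569) and with limma and a pseudocount of 0.1 (adjusted p = 0.169). With library size alone 1 was higher and 10 lower at 8 mpf, and 2 were higher and 11 lower at 50 dpf.

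Among ATF4 partners and stress targets, 2 of 18 were higher and 9 lower in HE at 8 mpf, and 1 was higher and 8 lower at 50 dpf, with medians of -0.50 and -0.38. That is 61.1% of the list at 8 mpf and 50% at 50 dpf. nupr1b, a small chromatin protein of the stress response, was at -2.15 (adjusted p = 0.000355) at 8 mpf and -1.90 (adjusted p = 0.000664) at 50 dpf. At 8 mpf the bZIP genes JDP2 (ENSDARG00000020133) and BATF3 were at -1.52 and -1.26 (adjusted p = 0.000175 each). BATF3 averaged 5.85 ± 1.25 CPM in HE and 14.1 ± 1.59 CPM in WT. ERO1A, an oxidase of the endoplasmic reticulum, was at 1.28 (adjusted p = 0.000378; 28.1 ± 4.59 CPM in HE and 11.5 ± 3.62 CPM in WT). nupr1a was at 0.27 (adjusted p = 0.0331), but on the authors' normalized values it was at -0.97 (limma adjusted p = 0.000189). Of 23 alternatives, 3 turned its sign and a further 12 lost the call (adjusted p up to 0.385). DDIT4, an inhibitor of mTORC1, was at -0.96 (adjusted p = 0.00224) at 8 mpf and -0.97 (adjusted p = 0.00152) at 50 dpf. It averaged 57.7 ± 13.6 CPM in HE and 113 ± 3.37 CPM in WT at 50 dpf. At that age JDP2 (ENSDARG00000040137) was at -1.16 (adjusted p = 0.00777). sesn2 at 50 dpf was at 0.40 (adjusted p = 0.0219) and did not pass in 5 of 23 alternatives. With upper quartile scaling 1 was higher and 9 lower at 8 mpf, and 0 were higher and 8 lower at 50 dpf. Scaled by library size alone, 1 was higher and 9 lower at 8 mpf, and 0 were higher and 10 lower at 50 dpf.

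The eIF2 kinases and eIF2 cycle genes had 1 of 15 higher and 1 lower in HE at 8 mpf, and 5 higher and 1 lower at 50 dpf. The share called, 13.3% at 8 mpf and 40% at 50 dpf, was below the share of all genes at 8 mpf and near it at 50 dpf. The called pair at 8 mpf were the phosphatase subunits that undo eIF2 phosphorylation. ppp1r15b was at 0.74 (adjusted p = 0.000148; 28.0 ± 1.32 CPM in HE and 16.8 ± 0.740 CPM in WT) and ppp1r15a, the form that ATF4 and CHOP induce, was at -0.53 (adjusted p = 0.00363; 19.2 ± 1.54 CPM in HE and 27.8 ± 1.18 CPM in WT). ppp1r15a was also lower at 50 dpf, at -0.62 (adjusted p = 0.00103), and ppp1r15b was also higher there, at 0.33 (adjusted p = 0.0206). Also higher at 50 dpf were EIF2S1 (ENSDARG00000052178), the phosphorylated subunit, at 0.80 (adjusted p = 0.000278) and EIF2B3 of the exchange factor at 0.63 (adjusted p = 0.00119). IMPACT, which restrains the kinase GCN2, was higher at 0.995 (adjusted p = 0.00184). Without WT replicate 2 of 8 mpf 3 were higher and 2 lower at 8 mpf, and without HE replicate 1 of 50 dpf 3 were higher and 1 lower. With library size alone 3 were higher and 5 lower at 50 dpf, and 1 was higher and 2 lower at 8 mpf, where upper quartile scaling gave the same split.

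The serine, one-carbon and amino acid synthesis list had 2 of 23 genes higher and 5 lower in HE at 8 mpf, and 8 higher and 6 lower at 50 dpf. The share called was 30.4% at 8 mpf, near that of all genes, and 60.9% at 50 dpf. cbsb, which starts the path from homocysteine to cysteine, was at -1.28 (adjusted p = 1.55e-05) at 8 mpf and -0.96 (adjusted p = 0.000128) at 50 dpf, with 22.5 ± 2.56 CPM in HE and 54.8 ± 8.78 CPM in WT at 8 mpf. GPT (ENSDARG00000019541), an alanine aminotransferase, was at -1.52 (adjusted p = 2.53e-05) and -1.33 (adjusted p = 5.47e-05), and CTH (ENSDARG00000032206), the last enzyme of cysteine synthesis, was at -2.54 (adjusted p = 0.000256) at 8 mpf. The proline enzymes split at 50 dpf, with pycr1b at 1.13 (adjusted p = 5.23e-06; 320 ± 25.1 CPM in HE and 147 ± 6.78 CPM in WT), PYCR3 at 1.12 (adjusted p = 7.25e-06) and pycr1a at -2.40 (adjusted p = 1.96e-05). MTHFD1 (ENSDARG00000040492), of folate metabolism, was at 0.75 (adjusted p = 0.000217). At 8 mpf pycr1b was at 0.34 (adjusted p = 0.0247) and PHGDH, the first enzyme of serine synthesis, at 0.32 (adjusted p = 0.0369). These 8 mpf calls did not pass in 6 and 11 of 23 alternatives. PHGDH was higher at 50 dpf too, at 0.64 (adjusted p = 0.00053). With upper quartile scaling 0 were higher and 5 lower at 8 mpf, and with library size alone 0 were higher and 7 lower at 8 mpf and 4 were higher and 8 lower at 50 dpf.

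Of the cytosolic tRNA synthetases, 7 of 20 were higher and 0 lower in HE at 8 mpf, and 9 were higher and 2 lower at 50 dpf, with medians of 0.12 and 0.17. This was 35% of the list at 8 mpf and 55% at 50 dpf. QARS1 was higher at both ages, at 0.39 (adjusted p = 0.00238) and 0.37 (adjusted p = 0.00242). KARS1 was at 0.64 (adjusted p = 0.00179; 335 ± 22.2 CPM in HE and 215 ± 7.75 CPM in WT) and SARS1 at 0.30 (adjusted p = 0.0202) at 8 mpf. At 50 dpf RARS1 was at 0.71 (adjusted p = 0.000314), GARS1 at -0.38 (adjusted p = 0.00425) and YARS1 at -0.66 (adjusted p = 0.0299). The SARS1 call was lost in 6 of 23 alternatives, among them leaving out WT replicate 1, HE replicate 1 or HE replicate 3 of 8 mpf (adjusted p up to 0.525), the YARS1 call without any WT library or HE replicate 1 of 50 dpf (adjusted p up to 0.103), and both QARS1 calls with library size alone (adjusted p 0.104 and 0.743). The direction of this list turned with the scaling, since library size alone gave 1 higher and 3 lower at 8 mpf, and 1 higher and 5 lower at 50 dpf. Upper quartile scaling gave 2 higher and 0 lower at 8 mpf. No filter, a fit of the compared groups alone, and leaving out WT replicate 2 of 50 dpf gave 4 higher and 0 lower each at 8 mpf. Leaving out WT replicate 3 of 8 mpf gave 3, and WT replicate 1, HE replicate 1 or HE replicate 3 of 8 mpf gave 2.

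The glutathione and cystine list had 4 of 14 genes higher and 3 lower in HE at 8 mpf, and 5 higher and 1 lower at 50 dpf. The share called was 50% at 8 mpf and 42.9% at 50 dpf, the second near that of all genes. nfe2l2b and NFE2L2, the genes of the oxidative stress factor NRF2, were at -1.31 (adjusted p = 0.000145) and -1.37 (adjusted p = 0.00144) at 8 mpf, and nfe2l2b was at -0.56 (adjusted p = 0.0183) at 50 dpf, a call lost without WT replicate 2, HE replicate 2 or HE replicate 3 of that age (adjusted p up to 0.0537). KEAP1, which restrains NRF2, was at 1.04 (adjusted p = 0.000629; 11.8 ± 0.274 CPM in HE and 5.76 ± 0.855 CPM in WT) at 50 dpf. GGCT, an enzyme that acts on gamma-glutamyl amino acids, was at -1.83 (adjusted p = 0.00339) at 8 mpf and 1.97 (adjusted p = 0.00229) at 50 dpf. It was at low counts, with 0.357 ± 0.0945 CPM in HE and 1.25 ± 0.108 CPM in WT at 8 mpf. At 50 dpf GGCT averaged 1.06 ± 0.371 CPM in HE and 0.258 ± 0.125 CPM in WT. GPX4, the lipid peroxidase that uses glutathione, was at 0.69 (adjusted p = 0.00162) at 50 dpf. ggt1a, which splits glutathione outside the cell, was at 1.43 (adjusted p = 0.00131) and GSS, which makes it, at 0.42 (adjusted p = 0.00635) at 8 mpf. ggt1b had no count in the 3 WT libraries at 8 mpf and 0.298, 0 and 0.375 CPM in HE, so the genotypes overlapped at 0. Its HE mean of 0.224 ± 0.198 CPM was 4.50-fold the WT floor of 3 counts per library, which with this spread is no firm bound. The ggt1b call (adjusted p = 0.0189) was lost with limma at either pseudocount and without HE replicate 3 of 8 mpf (adjusted p 0.063 or higher). Without WT replicate 2 of 50 dpf 3 genes were higher and 0 lower at 50 dpf. Scaled by library size alone, 3 were higher and 6 lower at 50 dpf and 3 higher and 4 lower at 8 mpf.

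For amino acid sensing by mTORC1, 3 of 25 genes were higher and 2 lower in HE at 8 mpf, and 9 higher and 3 lower at 50 dpf. The share called, 20% at 8 mpf and 48% at 50 dpf, was below that of all genes at 8 mpf and somewhat above it at 50 dpf. The sestrin genes SESN1 and sesn3, of sensors that restrain mTORC1, were lower at both ages, SESN1 at -0.56 (adjusted p = 0.00283) and -0.54 (adjusted p = 0.00281) and sesn3 at -1.99 (adjusted p = 0.0148) and -2.98 (adjusted p = 0.00307). The SESN1 calls were lost with offsets from the normalized table and with limma (adjusted p 0.0619 to 0.0683 at 8 mpf and 0.201 to 0.25 at 50 dpf). sesn3 was at low counts, with 0.303 ± 0.153 CPM in HE and 1.21 ± 0.402 CPM in WT at 8 mpf. At 50 dpf it averaged 0.140 ± 0.121 CPM in HE, with a lowest library of 0, and 1.08 ± 0.0837 CPM in WT. The sesn3 call at 8 mpf was lost with limma and without WT replicate 1, HE replicate 2 or HE replicate 3 of 8 mpf (adjusted p 0.052 to 0.333). SEC13 was at 0.51 (adjusted p = 0.0112) and 0.69 (adjusted p = 0.00132), and NPRL3 at 0.59 (adjusted p = 0.00532) and 0.57 (adjusted p = 0.00512), both parts of the GATOR complexes. Both NPRL3 calls were lost with library size alone (adjusted p = 0.0835 at 8 mpf and 0.242 at 50 dpf). SEH1L, another GATOR subunit, was at 0.58 (adjusted p = 0.00178) and the Rag GTPase gene rragca at -0.31 (adjusted p = 0.0164) at 50 dpf, and rragd was at 0.72 (adjusted p = 0.0477) at 8 mpf, a call lost in 17 of 23 alternatives. With upper quartile scaling 2 were higher and 3 lower at 8 mpf and 6 higher and 4 lower at 50 dpf. With library size alone 1 was higher and 6 lower at 8 mpf, and 3 higher and 8 lower at 50 dpf. The count at 8 mpf fell to 2 higher and 1 lower with offsets from the normalized table and without WT replicate 1, HE replicate 2 or HE replicate 3 of 8 mpf, and to 2 higher and 0 lower with limma.

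Genes of the IRE1 and ATF6 branches, the arms of the unfolded protein response beside the one that leads to ATF4, were higher in HE at 8 mpf for 11 of 15 and lower for 0, with a median of 0.59. At 50 dpf 7 were higher and 3 lower, with a median of 0.16. The share called was 73.3% at 8 mpf and 66.7% at 50 dpf. HSPA5, the chaperone BiP, averaged 2570 ± 84.4 CPM in HE and 1397 ± 49.3 CPM in WT at 50 dpf, at 0.88 (adjusted p = 4.63e-05). MANF was at 0.75 (adjusted p = 1.60e-05) at 8 mpf and 0.55 (adjusted p = 0.000158) at 50 dpf, and SEL1L, of protein disposal from the endoplasmic reticulum, was at 0.62 (adjusted p = 0.000375) and 0.71 (adjusted p = 0.000109). DNAJB9 (ENSDARG00000016886), a co-chaperone of BiP, was at 1.74 (adjusted p = 0.000527; 17.1 ± 3.06 CPM in HE and 5.10 ± 2.65 CPM in WT) at 8 mpf. Lower at 50 dpf were atf6 at -0.94 (adjusted p = 0.0334), EDEM1 at -0.34 (adjusted p = 0.0381) and DNAJB9 (ENSDARG00000052072), which had no count in HE and 0.360 ± 0.129 CPM in WT, at least 3.59-fold lower against the floor. The EDEM1 call was lost in 7 of 23 alternatives, among them leaving out any WT library or HE replicate 1 of 50 dpf or HE replicate 1 of 8 mpf (adjusted p up to 0.123). The atf6 call was lost in 4 of 23, without WT replicate 2, HE replicate 1 or HE replicate 2 of 50 dpf and in a fit of the compared groups alone (adjusted p up to 0.171). MANF at 50 dpf did not pass with library size alone (adjusted p = 0.0721). Scaled by library size alone, 8 were higher and 0 lower at 8 mpf, and 5 higher and 4 lower at 50 dpf.

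**Figure D5:**
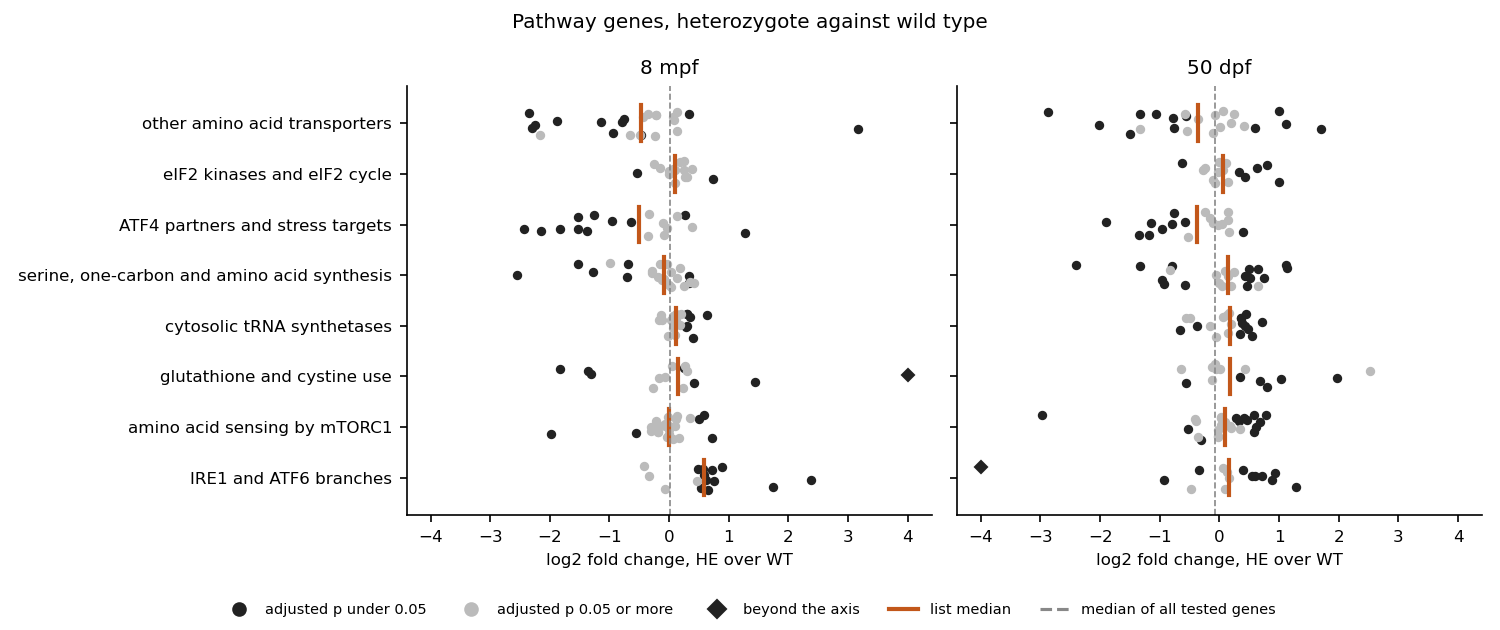
Log2 fold change of HE over WT for every tested gene of the 8 pathway lists at 8 mpf and at 50 dpf, with the list median as an orange bar and the median of all tested genes as a dashed line; black points passed the adjusted p threshold of 0.05, and diamonds are genes beyond the axis limit of 4 (1 at each age). The medians of the transporters and of the ATF4 partners lie below 0 at both ages, at -0.47 and -0.50 at 8 mpf.

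The 5 tested genes most like slc3a2a, by Pearson r of log2 CPM over the 12 libraries, were CXCR4 (ENSDARG00000057633) at 0.987, lgals9l3 at 0.985, SPATA18 at 0.982, ATP6V0A1 at 0.980 and wdr27 at 0.980. The libraries form 4 groups, so that r reflects mainly the group means, and they include the 8 mpf libraries on which slc3a2a was selected, so the likeness is a description and supports nothing about the set. CXCR4, a chemokine receptor, averaged 1.21 ± 0.151 CPM in HE and 11.0 ± 1.503 CPM in WT at 8 mpf, and 3.14 ± 0.120 CPM in HE and 21.0 ± 2.63 CPM in WT at 50 dpf. Its ID is 1 of 2 under that symbol, which has no paralog letter. Both were taken among the 14 leukocyte markers for cxcr4b, so this ID may be the other paralog. SPATA18, which acts in mitochondrial quality control, averaged 2.38 ± 0.147 CPM in HE and 24.1 ± 4.28 CPM in WT at 8 mpf, and 7.09 ± 0.716 CPM in HE and 50.9 ± 1.68 CPM in WT at 50 dpf. Among the other genes of the set, slc3a2b (r = 0.928) ranked 184 and slc7a5 (r = 0.917) ranked 230 of 18833 genes, while asns (r = 0.444), atf4b (r = 0.512), ddit3 (r = 0.505), slc7a11 (r = 0.417) and trib3 (r = 0.327) were less like it, and atf4a (r = -0.212) and chac1 (r = -0.324) ran the other way.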

How the data were processed

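The 12 libraries, 3 in each of 4 groups, were grouped from the labels, and the genes and lists described here were chosen with earlier results of these data known. Per the labels' protocols RNA was taken up in TRIzol and libraries were made with a NEBNext Ultra II Directional kit. The submitters' processing notes name bcl2fastq, FastQC 0.11.5, HISAT2, StringTie and DESeq2 with the build GRCz11, without their order. How reads shared by paralogs were counted, and the strand setting, are not given in the sources used here, so values of gene pairs such as slc3a2a and slc3a2b or atf4a and atf4b are uncertain. The deposited raw table holds estimated counts as whole numbers, made by the authors for 32057 genes. The authors' deposited normalized table was treated as a signal, and 6997 of the 15798 genes counted in every library share 1 set of sample factors between the tables, while the others carry a factor of their own.

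Of 26339 genes with a count, 18834 passed edgeR's filterByExpr (0.208 CPM in at least 3 libraries). Counts were scaled by TMM and tested in 1 fit of the 12 libraries with edgeR's quasi-likelihood F test (edgeR 4.0.16, R 4.3.3), with Benjamini-Hochberg adjustment over all tested genes and a threshold of 0.05. Every adjusted p in the text is from that fit unless an alternative is named with it, such as another scaling, a left-out library or limma (3.58.1), or the permutation test is. Each alternative was fitted and adjusted on its own. The SE is the absolute log2 fold change over the square root of F. The 23 alternatives were 11 settings, with DESeq2 1.42.0 and limma on log2(normalized value + 1 or 0.1) among them, and leaving out each library. Pathway genes named are up to 3 in each direction per list and age with the smallest p-values past the threshold (1 such gene is not reported here), and the 5 genes most like slc3a2a had a mean of at least 5 CPM in their highest group. Library totals of 31044931 to 96839220 counts set the precision, and 3 counts was the floor for a count of 0, which covers counting error only. Ratios were compared by exact two-sided permutation tests.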

Additional observations from a re-analysis of the deposited data

Results flagged for a closer look

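By the interaction term of the edgeR fit, the effect of genotype differed between the ages for atf4b and for 16 of the pathway genes named above. Of all tested genes 13.5% passed this term. In the whole lists, 1 was higher and 7 lower of 23 transporters, and 2 and 4 of 23 synthesis genes. It was 0 and 3 of 15 eIF2 genes, 1 and 2 of 18 stress targets, and 1 and 1 of 25 mTORC1 genes. The glutathione list had 0 and 1 of 14, the IRE1 and ATF6 list 1 and 0 of 15, and the tRNA synthetases 0 and 0 of 20. Each value given next is the log2 fold change of HE over WT at 8 mpf less that at 50 dpf. For atf4b it was 0.82. Among the transporters it was -1.22 for SLC1A4, -2.85 and -2.36 for the SLC43A2 genes ENSDARG00000061120 and ENSDARG00000036848, 2.38 for SLC7A3 (ENSDARG00000061566) and -1.78 for SLC7A7. In the eIF2 list it was -0.62 for EIF2S1 (ENSDARG00000052178) and -1.25 for IMPACT. Stress targets had 1.30 for ERO1A and -1.68 for JDP2 (ENSDARG00000020133). The synthesis genes had -0.79 for pycr1b, -1.27 for PYCR3, 2.11 for pycr1a and -1.61 for CTH (ENSDARG00000032206). GGCT had -3.79, the Rag gene rragca 0.44, and DNAJB9 (ENSDARG00000052072) 9.60, a fitted value with no count in HE at 50 dpf and so no bound. The pathway genes were named for passing in 1 of the same contrasts, so these differences are no independent evidence.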

How the results depend on the processing

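Of 50 values of the 10 genes over 5 contrasts, 31 had no change under any alternative that gave one. A turn of sign was not counted as a change where the gene passed in neither fit. The difference between the ages for slc3a2b, for example, ran from -0.28 to 0.21 and is among the 31. The slc3a2a values without a test kept their direction but counted as changed where their size moved. With library size alone asns at 50 dpf turned to -0.28 (adjusted p = 0.0191), and the cause was not tested. nupr1a at 8 mpf, 0.27 in edgeR, turned to -0.97 with offsets from the normalized table and to -0.97 with limma at either pseudocount. Over the fits that left out 1 library each, the genes called numbered 7 to 8 in HE against WT at 50 dpf, 3 to 5 at 8 mpf, 1 to 2 for the difference between the ages, 2 to 6 with age in WT and 6 to 7 with age in HE. With age in WT the count of 5 fell to 3 without WT replicate 1 or replicate 3 of 50 dpf, and to 2 without WT replicate 2 of 8 mpf. The replicate block gave 7, 4, 1, 5 and 6 calls in the same order, as without it. Same-numbered libraries showed little shared deviation (r between -0.159 and 0.105). No pairing by number was detected, though 3 libraries per group cannot exclude it. Of 75 results on named pathway genes, 52 changed under no alternative. Low counts limit slc7a5, slc7a11 and ddit3. A fit of the compared groups alone gives no difference between the ages, and genes that a filter dropped have no value there.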

Other observations

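nupr1a (ENSDARG00000094300) averaged 99.0 ± 3.98 CPM in HE and 82.2 ± 3.46 CPM in WT at 8 mpf (SD, n = 3 each). In the authors' normalized table it averaged 2584 ± 122 in HE and 5057 ± 238 in WT at that age, the opposite order. The factor between the tables that was its own, beyond the set shared by 6997 genes, was 1.84 in the HE libraries of 8 mpf and 0.781 to 0.782 in WT of 8 mpf. At 50 dpf it was 0.780 to 0.781 in HE and 0.780 to 1.17 in WT. No explanation was tested.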
